A study of Mus musculus with 6 samples.

Results

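Immediate early genes are transcribed within minutes of a stimulus, without new protein synthesis. The 10 genes described here are *Fos*, *Fosb*, *Jun*, *Junb*, *Egr1*, *Ier2*, *Nr4a1*, *Atf3*, *Btg2* and *Dusp1*, classical members of this class. They were chosen with earlier results of these data known, so their counts below are descriptions. All 10 were among the 17418 genes of the count table. They were followed across the cell subtypes of the mouse cortex, and between mice, collection batches and libraries. Single-cell RNA-Seq had been performed with InDrop, in which each cell meets a barcoded bead in a droplet and each transcript is tagged with a unique molecular identifier (UMI). Cortex was collected at postnatal day 5 from 3 wild type (WT) mice of the strain FVB.129P2-Pde6b+ Tyrc-ch/AntJ and from 3 mice of FVB.129P2-Pde6b+ Tyrc-ch Fmr1tm1Cgr/J, which lack *Fmr1* in all cells (*Fmr1*-KO), and both sexes were used. The labels name no treatment, and all cortices were dissociated with papain. WT 1, *Fmr1*-KO 1 and *Fmr1*-KO 2 were collected in the first batch with V2 beads. WT 2, WT 3 and *Fmr1*-KO 3 were collected in the second batch with V3.8 beads, so that effects of the collection batch and of the bead version cannot be told apart, and "bead version" below stands for both.

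FOS and JUN family proteins pair to form the transcription factor AP-1, which binds DNA at AP-1 and cAMP response elements. EGR1 and NR4A1 are transcription factors with zinc fingers that are induced in the same wave, while DUSP1 and BTG2 act against growth signalling and proliferation. In the brain these genes are used as marks of recent neuronal firing, and they also rise in glia and vascular cells when a tissue is cut and digested with enzymes.

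The 6 mice gave 17280 cells after 1113 cells marked as doublets were left out, in 17 libraries and 18 subtypes. UMIs per mouse ranged from 7909181 to 20629134, and the median per cell from 1957 to 4908. Of 15463 cell barcodes, 2231 occurred in more than 1 library. WT 2 had the most cells marked as doublets (371). All members of the marker list were highest in the subtype of that name for astrocytes (5 of 5), endothelial cells, pericytes, oligodendrocytes (4 of 4 each) and ependymal cells (3 of 3), against 4 of 5 for microglia and interneurons, 3 of 4 for ganglionic progenitors, 2 of 5 for excitatory neurons and 1 of 4 for OPC_1, the larger group of oligodendrocyte precursors.

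By position (mm10, GENCODE vM21), *Fos* lies on chromosome 12 from 85473890 to 85477273, *Fosb* on chromosome 7 from 19302696 to 19310051, and *Jun* on chromosome 4 from 95049034 to 95052222, where the antisense gene *Junos* overlaps it. *Junb* (84974484 to 84978718) and *Ier2* (84661331 to 84662852) share chromosome 8, and *Btg2* (134075170 to 134079120) and *Atf3* (191170296 to 191218039) share chromosome 1. *Nr4a1* lies on chromosome 15 from 101254269 to 101274795 and *Dusp1* on chromosome 17 from 26505590 to 26562128.

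The sequences before the transcription start are shown because the members were examined for moving together. RefSeq promoters (GRCm38.p6) of 8 of the 10 genes were searched over the 250 bases before the start, on both strands. *Egr1* and *Ier2* had no entry among the promoters used. TGACG, the core of the cAMP response element to which CREB and ATF proteins bind, occurred in 7 of these 8 promoters, with *Jun* as the exception, and in 17.8% of 32851 RefSeq promoters of that length. The complete element TGACGTCA, which contains TGACG, occurred in *Btg2* and *Dusp1* and in 1.55% of all promoters. Bases 200 to 51 before the start are printed for 6 of these 8 genes, 5′ to 3′ in the direction of the gene, with TGACG, its reverse complement CGTCA and TGACGTCA in capitals.
Fos (chr12:85473690-85473839, plus strand): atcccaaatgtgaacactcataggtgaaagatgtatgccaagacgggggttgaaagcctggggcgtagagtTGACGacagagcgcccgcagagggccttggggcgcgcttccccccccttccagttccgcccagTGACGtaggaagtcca
Jun (chr4:95052273-95052422, minus strand): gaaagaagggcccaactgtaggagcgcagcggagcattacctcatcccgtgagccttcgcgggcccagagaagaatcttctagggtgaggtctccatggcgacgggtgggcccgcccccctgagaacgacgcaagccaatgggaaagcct
Junb (chr8:84978799-84978948, minus strand): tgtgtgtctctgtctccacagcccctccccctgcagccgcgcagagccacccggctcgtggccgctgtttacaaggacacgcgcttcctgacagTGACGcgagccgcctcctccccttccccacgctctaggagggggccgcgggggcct
Nr4a1 (chr15:101266646-101266795, plus strand): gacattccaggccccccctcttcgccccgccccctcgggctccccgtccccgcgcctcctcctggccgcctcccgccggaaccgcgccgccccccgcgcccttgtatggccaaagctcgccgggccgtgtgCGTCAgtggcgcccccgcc
Btg2 (chr1:134079206-134079355, minus strand): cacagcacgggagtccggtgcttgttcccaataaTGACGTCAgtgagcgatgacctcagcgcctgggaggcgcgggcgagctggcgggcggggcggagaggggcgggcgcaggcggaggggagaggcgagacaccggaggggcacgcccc
Dusp1 (chr17:26508523-26508672, minus strand): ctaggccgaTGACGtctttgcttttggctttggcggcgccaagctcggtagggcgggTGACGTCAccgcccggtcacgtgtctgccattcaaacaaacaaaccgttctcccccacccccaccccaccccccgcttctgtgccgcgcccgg

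*Fos* also held TATAAA, found in 12.4% of all promoters. GCGGGGGCG, the sequence read by EGR proteins, occurred in *Fosb* and *Nr4a1* and in 2.57% of promoters. GGGCGG, which overlaps it in these genes and is read by SP proteins, occurred in 7 of the 8 members and in 32.7% of promoters. TGANTCA, the AP-1 element, and the CArG box of serum response factor were in none of the 8, against 6.75% and 1.47% of all promoters. The printed windows held from 59.3% (*Fos*) to 79.3% (*Nr4a1*) G and C, above the median of 52.7% over all promoters, so that the shares are not matched on base composition. The matches are a description of letters and not of sites in use.

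Astrocytes, microglia, ependymal, vascular and pericyte populations carried the highest levels of the 10 genes, and neurons and oligodendrocytes the lowest. UMIs were summed per mouse and subtype, and levels are given as UMIs of a gene per 1000000 UMIs of that sum (CPM). The 10 genes together made up 11076 ± 2930 CPM in Astrocytes_2, a small astrocyte population, and 10102 ± 2646 in Astrocytes_1, the main one (mean ± SD, n = 6 mice here and below). They stood at 9657 ± 2260 in microglia, 8235 ± 876 in ependymal cells, 7798 ± 3962 in pericytes and 7236 ± 2303 in endothelial cells. Within these 6 populations each was above the next in only 3 or 4 of the 6 mice. Astrocytes_2 was above pericytes and endothelial cells, and Astrocytes_1 above endothelial cells, in 6 of 6 mice, and the other pairs kept the order of their means in 3 to 5 mice. Below them, ganglionic progenitors, the dividing precursors of inhibitory neurons, had 3342 ± 669 CPM. OPC_1 had 1354 ± 310, interneurons 1218 ± 120, excitatory neurons 567 ± 191 and oligodendrocytes 380 ± 187. The steps from endothelial cells to ganglionic progenitors (2.17-fold), from ganglionic progenitors to OPC_1 (2.47-fold), from interneurons to excitatory neurons (2.15-fold) and from excitatory neurons to oligodendrocytes (1.49-fold) were in the same direction in 6 of 6 mice. Subtypes were clustered by the authors from these same cells, so the levels are given as a description and were not tested.

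**Figure D1:**
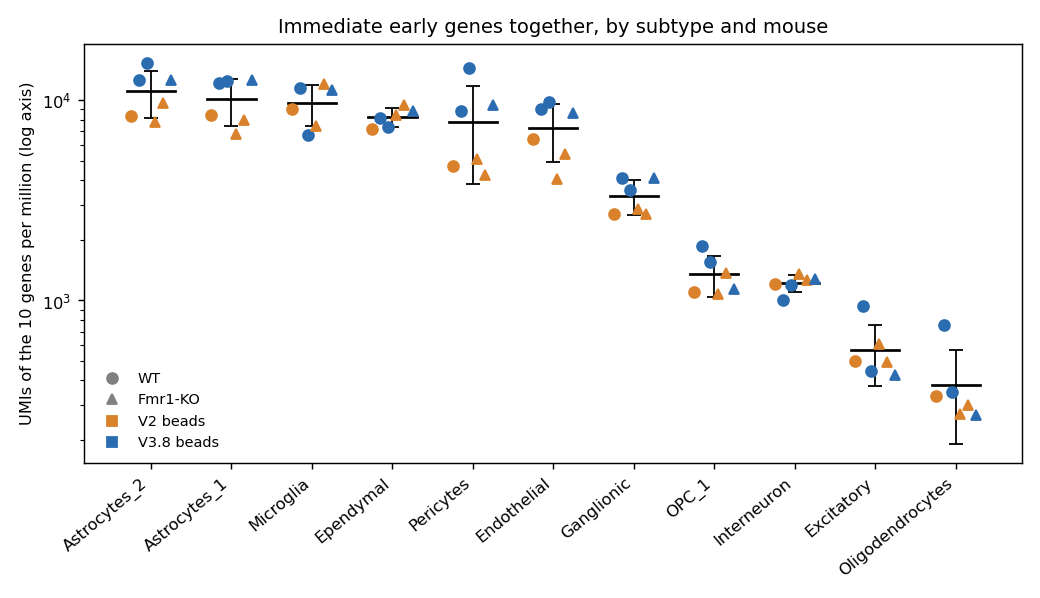
CPM of the 10 immediate early genes together (log axis) in each mouse, for the 11 subtypes with at least 10 cells in every mouse, ordered by mean. Lines and bars are mean and SD over 6 mice, circles WT and triangles Fmr1-KO. In Astrocytes_1, Astrocytes_2, Pericytes, Endothelial and Ganglionic all V3.8 mice sit above all V2 mice, and in Excitatory and Oligodendrocytes WT 2 is the highest mouse.

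WT 2 was the highest mouse in 3 of the 4 subtypes with the lowest levels, and the lowest mouse in interneurons (1002 CPM, others from 1201 to 1359). Its 10 genes together reached 935 CPM in excitatory neurons, where the other 5 mice had between 424 and 603. In oligodendrocytes WT 2 had 756 CPM and the others from 268 to 349, and in OPC_1 it had 1863 against 1082 to 1563. Without WT 2 the means were 493 in excitatory neurons, 304 in oligodendrocytes and 1252 in OPC_1. Of the summed astrocyte markers (5 of 5 genes detected, none at 0), WT 2 oligodendrocytes had 297 CPM, the highest of the 6 mice, among which the lowest had 77.2. In excitatory neurons WT 2 had 393 CPM of these markers, within the range of 81.9 to 444 over mice, and in OPC_1 1015, the highest, against 660 in the lowest mouse. Of the summed microglia markers (5 of 5 detected, none at 0) WT 2 had 322 CPM in OPC_1, and the other mice from 7.21 to 91.8. In excitatory neurons the median UMIs per cell also differed, at 976, 1042 and 991 in the V2 mice and 2005, 8588 and 5890 in WT 2, WT 3 and *Fmr1*-KO 3. The part of other cells' RNA and of depth in these levels was not tested.

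The members differed in the population where each was highest. *Fos*, the best known AP-1 subunit, had its highest mean in Astrocytes_2, at 4770 ± 1447 CPM, and was above Astrocytes_1 (3962 ± 1196) in 6 of 6 mice. In Astrocytes_2 it made up 43.1% of the UMIs of the 10 genes, and in microglia 7.63%. *Fosb*, its paralog, was highest in ependymal cells (416 ± 224) and Astrocytes_2 (392 ± 34.5), which kept that order in only 2 of 6 mice. Ependymal cells numbered only 13 in WT 3 and 12 in *Fmr1*-KO 1, with 20 and 47 UMIs of *Fosb*.

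*Jun*, the main partner of FOS, was highest in endothelial cells at 1174 ± 275 CPM, above microglia (919 ± 382) in 4 of 6 mice. *Junb*, a JUN paralog that can restrain AP-1, was highest in microglia at 1986 ± 491, above pericytes (1356 ± 655) in 5 of 6 mice. *Atf3*, a stress-induced factor of the ATF family that pairs with JUN proteins, was the member most restricted to one population. Microglia had 326 ± 66.7 CPM of *Atf3*, 3.26-fold above endothelial cells (100 ± 39.1), and the order was the same in 6 of 6 mice. No UMI of *Atf3* was counted in ganglionic progenitors, which allows a level of up to 1.17 CPM by a limit of 3 counts over the 6 mice together, for counting error only.

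*Egr1* encodes a zinc finger factor and was highest in microglia (2064 ± 609 CPM). Ganglionic progenitors, low in most members, had 1204 ± 324 of *Egr1*, and Astrocytes_2 (1243 ± 538) was above them in only 1 of 6 mice. *Nr4a1*, an orphan nuclear receptor, had nearly equal means in Astrocytes_2 (1074 ± 287), Astrocytes_1 (1007 ± 212) and microglia (949 ± 280). *Ier2*, a small nuclear protein, led in endothelial cells at 1268 ± 418, above microglia (948 ± 320) in 5 of 6 mice.

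Of the genes with inhibitory roles, *Btg2*, which slows the cell cycle, was highest in microglia (1197 ± 325 CPM) and was above Astrocytes_2 (948 ± 239) in 5 of 6 mice. *Dusp1*, a phosphatase that switches off MAP kinases, was highest in endothelial cells (879 ± 398) and next in ependymal cells (672 ± 168), in an order held by 3 of 6 mice. Over the 10 tested subtypes defined below, the SD of the subtype means on the log2 scale lay between 1.58 (*Jun*) and 3.29 (*Atf3*), while the median SD over mice within a subtype lay between 0.41 (*Jun*) and 1.16 (*Atf3*).

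**Figure D2:**
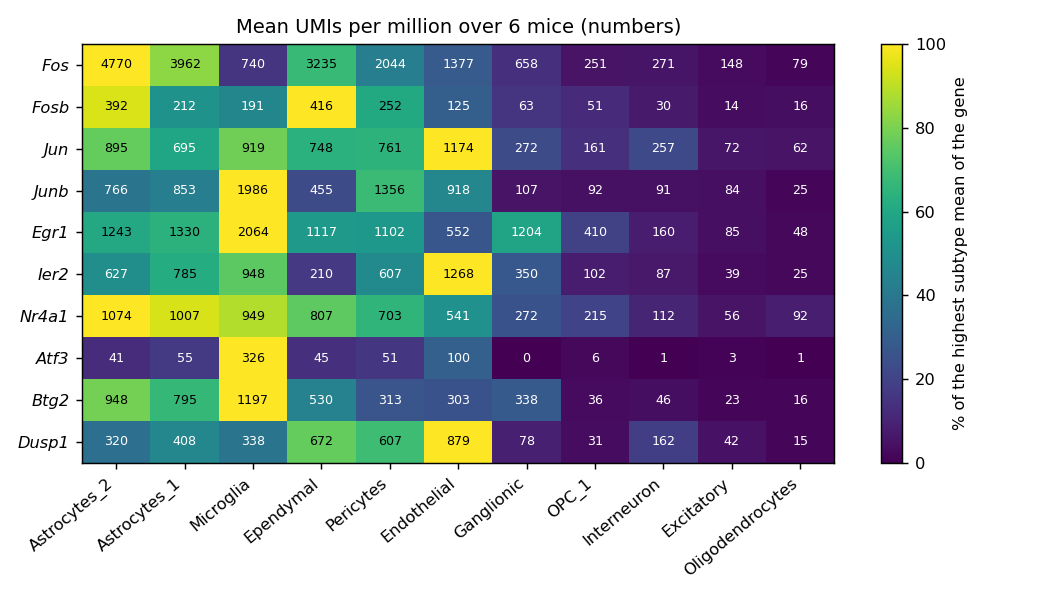
Mean level over 6 mice (numbers, CPM) of each gene in 11 subtypes, with colours as percent of the highest subtype mean of the same gene. Rows are not comparable in level with each other because transcripts are counted at their 3′ ends with unequal capture. Fos and Nr4a1 peak in astrocytes, Fosb in ependymal cells, Jun, Ier2 and Dusp1 in endothelial cells, and Junb, Egr1, Atf3 and Btg2 in microglia.

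Differences between mice were compared in the 10 subtypes with at least 100 cells per genotype with edgeR's quasi-likelihood test, with genotype and bead version in the same model. Tests were limited to genes detected (1 UMI or more) in 15% or more of a subtype's cells, and a gene was called at a false discovery rate (FDR, Benjamini-Hochberg within the subtype) under 0.01 with the higher group at least 15% above the lower. Of the 100 combinations of gene and subtype, 71 passed the filter and 29 did not, among them 7 members each in excitatory neurons and oligodendrocytes, 6 in interneurons and 4 in OPC_1. *Atf3* passed only in microglia and endothelial cells.

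Members were called higher with V3.8 beads in astrocytes, vascular cells and ganglionic progenitors. Of the 71 combinations 23 were called higher with V3.8 beads, against 4.32% of the 38812 tests over all genes, and 1 was called lower, against 5.24%. All V3.8 mice were above all V2 mice in 33 of 71 combinations, against 18.2% of all tests. By subtype, 6 of 9 tested members were called higher in Astrocytes_1 (9.1% of all genes there), 3 of 9 in Astrocytes_2 (1.54%), 5 of 10 in endothelial cells (6.86%), 6 of 9 in pericytes (1.55%) and 3 of 8 in ganglionic progenitors (3.04%). No member was called in microglia (10 tested, 2.66% of all genes called in either direction), OPC_1 (6 tested, 7.7%), interneurons (4 tested, 9.79%), excitatory neurons (3 tested, 25.4%) or oligodendrocytes (3 tested, 3.09%). In these 5 subtypes 2 of 26 combinations had an unadjusted p under 0.05 in the edgeR test, and DESeq2 called 0. Over all genes such a p was found for 556 of 3009 in microglia, 1334 of 4076 in OPC_1 and 1055 of 3177 in interneurons. It was found for 1915 of 3737 in excitatory neurons and 816 of 4726 in oligodendrocytes. With both directions together 24 combinations were called, against 9.55% of all tests, and 39 of 71 had an unadjusted p under 0.05. In the 5 subtypes with calls, all genes gave such a p for 2252 of 4814 in Astrocytes_1 and 981 of 4085 in Astrocytes_2. The counts were 1531 of 4080 in endothelial cells, 1048 of 4009 in ganglionic progenitors and 663 of 3099 in pericytes. The number called was 7 without *Fmr1*-KO 3 and 11 without WT 1. It lay between 18 and 23 without any other single mouse. With every cell thinned to 700 UMIs, 20 were called, 19 of them among the 24. Of the 24 calls, 19 were lost without *Fmr1*-KO 3 and 14 without WT 1, and 3 held in all 13 alternative settings. The share of all genes called is not given for these settings. Whether members lost calls more than other genes was therefore not tested.

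Markers of other cell types also differed between bead versions in these 5 subtypes, and their part in the results was not tested. The summed markers of excitatory neurons (5 of 5 detected, none at 0) were lower with V3.8 beads in each of them, without overlap. They ranged from 112 to 146 CPM in V2 mice and from 8.34 to 54.2 in V3.8 mice in Astrocytes_1, from 178 to 193 against 3.60 to 154 in Astrocytes_2, and from 120 to 143 against 10.8 to 36.3 in endothelial cells. In pericytes the ranges were 119 to 195 against 18.7 to 84.4, and in ganglionic progenitors 122 to 143 against 9.76 to 49.4. The 5 interneuron markers were likewise lower in all 5 subtypes, for example from 71.3 to 73.1 against 23.8 to 32.2 in Astrocytes_1. In Astrocytes_2 the 5 microglia markers were higher with V3.8 beads, from 17.0 to 30.7 against 141 to 274, and so were the 4 pericyte markers, from 90.3 to 154 against 174 to 238. The 4 OPC markers were higher in ganglionic progenitors, from 270 to 314 against 371 to 609, and the 4 ganglionic progenitor markers were lower in pericytes, from 411 to 475 against 125 to 237. Over single genes, every V3.8 mouse was below every V2 mouse for 29.4% in Astrocytes_1, 16.4% in Astrocytes_2 and 23.7% in endothelial cells. The share was 13.8% in pericytes and 15.3% in ganglionic progenitors. Every V3.8 mouse was above for 23.5%, 13.6%, 14.3%, 13.6% and 15.8% in this order of subtypes. Own markers also moved in Astrocytes_1, endothelial cells and pericytes. Those of astrocytes were lower in Astrocytes_1 (13813 to 16008 against 11774 to 13685) and those of endothelial cells (6896 to 7307 against 8316 to 9722) and pericytes (6949 to 8057 against 9257 to 10977) were higher with V3.8 beads in their subtypes.

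**Figure D3:**
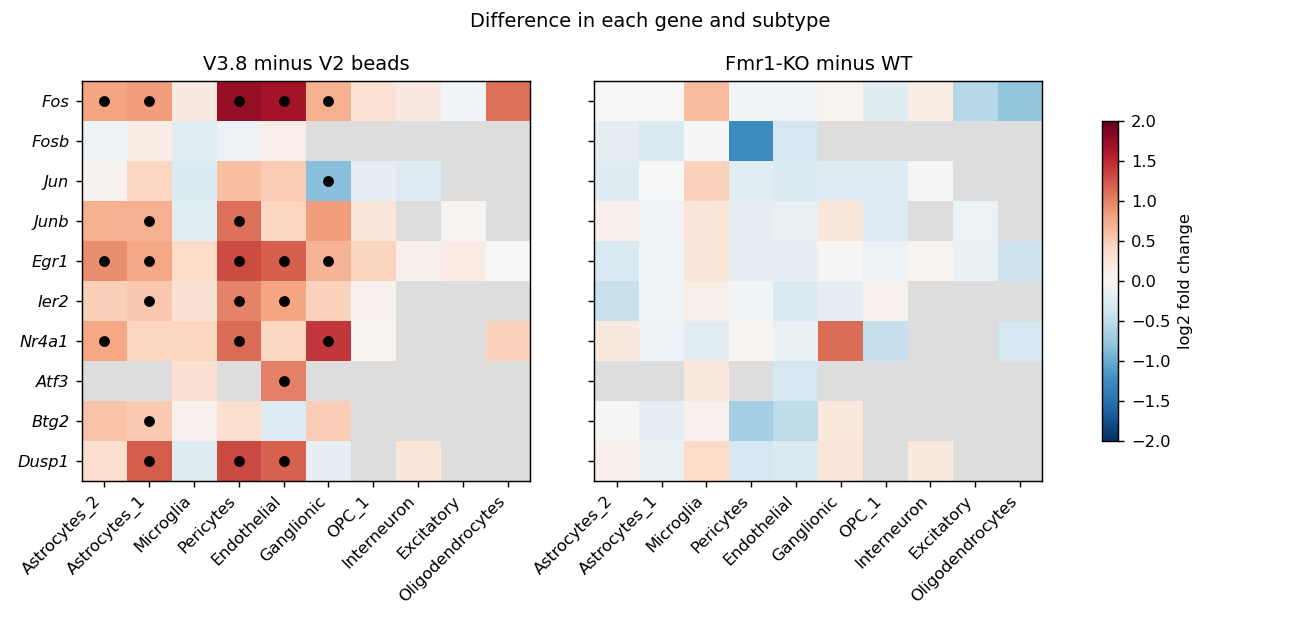
Log2 fold change of each gene (rows) in each tested subtype (columns), for V3.8 minus V2 beads (left) and Fmr1-KO minus WT (right), on the same colour scale. Dots mark calls, and grey marks combinations below the detection filter. There are 24 dots on the left, of which only Jun in Ganglionic is negative, and 0 on the right.

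*Fos* was called higher with V3.8 beads in 5 subtypes. In Astrocytes_1 it stood at 3037, 2575 and 3054 CPM in the V2 mice WT 1, *Fmr1*-KO 1 and *Fmr1*-KO 2, and at 4812, 5049 and 5243 in the V3.8 mice WT 2, WT 3 and *Fmr1*-KO 3. The 3 mice of each bead version lay close together and the groups did not overlap, with a log2 fold change of 0.83 ± 0.11 (SE) and an FDR of 0.0011 in the edgeR test. In endothelial cells the V2 mice had 856, 447 and 771 CPM and the V3.8 mice 1932, 2030 and 2225. The groups were far apart, and the log2 fold change was 1.67 ± 0.21 (edgeR FDR 3.43e-05).

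The largest *Fos* difference was in pericytes, contractile cells on capillaries. V2 mice had 863, 1142 and 796 CPM and V3.8 mice 2457, 4140 and 2866, without overlap. The log2 fold change was 1.74 ± 0.20 (edgeR FDR 4.31e-05). Pericytes numbered from 58 to 60 per V2 mouse and from 140 to 364 per V3.8 mouse. *Fos* was also called in Astrocytes_2 (log2 fold change 0.78 ± 0.16) and ganglionic progenitors (0.70 ± 0.18, edgeR FDR 0.0065). In the progenitors WT 2 (613) was below *Fmr1*-KO 1 (630), so the groups overlapped, and the call held in 6 of 13 alternative settings. It was lost without *Fmr1*-KO 2 (0.43), *Fmr1*-KO 3 (0.25), WT 1 (1.11) or WT 3 (0.69). In microglia the V2 mice had 625, 734 and 846 and the V3.8 mice 769, 404 and 1060, and the log2 fold change of 0.18 ± 0.22 was not called.

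*Fosb* was not called in any of the 5 subtypes in which it was tested, by edgeR (0 with an unadjusted p under 0.05) or DESeq2, with log2 fold changes between -0.22 in microglia and 0.15 in Astrocytes_1. In Astrocytes_2 it stood at 437, 349 and 417 CPM in V2 mice and 386, 407 and 357 in V3.8 mice, fully overlapping.

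*Junb* was called in Astrocytes_1 and in pericytes. In Astrocytes_1 V2 mice had 702, 604 and 643 CPM and V3.8 mice 1055, 1051 and 1062. The V3.8 values were nearly equal and all above the V2 values, and the log2 fold change of 0.71 ± 0.08 (edgeR FDR 0.00077) was called in all 13 alternative settings. In pericytes the log2 fold change was 1.10 ± 0.18 (FDR 0.0014), and the call held in 10 of 13. *Junb* lies on chromosome 8 over part of *Prdx2* on the opposite strand, and the use of strand in counting is not given in the sources used here.

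*Jun* was the single member called lower with V3.8 beads. In ganglionic progenitors V2 mice had 426, 262 and 345 CPM and V3.8 mice 214, 179 and 207. The groups did not overlap, and the log2 fold change was -0.84 ± 0.18 (edgeR FDR 0.0011), against 3.89% of genes called lower there. The call held in 9 of 13 alternative settings and was lost without WT 1 (-0.56) or WT 3 (-0.74). Its relative *Jund*, from the list of AP-1 partners, was called lower in the same cells with a log2 fold change of -0.63. In Astrocytes_1 and endothelial cells all V3.8 mice were above all V2 mice for *Jun*, with log2 fold changes that were not called (0.41 ± 0.12 and 0.51 ± 0.16, edgeR FDR 0.027 and 0.0296). *Atf3* was called higher in endothelial cells, at 93.1, 55.1 and 56.2 CPM in V2 mice and 128, 151 and 117 in V3.8 mice. Its log2 fold change was 1.01 ± 0.21 (edgeR FDR 0.0023), and in microglia it was 0.30 ± 0.21. The endothelial call held in 10 of 13 alternative settings, was lost without *Fmr1*-KO 1 (0.96), *Fmr1*-KO 2 (0.94) or *Fmr1*-KO 3 (0.66), and the value was 2.45 with thinned cells.

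*Egr1* was called higher with V3.8 beads in the same 5 subtypes as *Fos*. In endothelial cells V2 mice had 426, 236 and 372 CPM and V3.8 mice 805, 730 and 742. In pericytes they had 663, 569 and 624 against 1451, 1870 and 1438. Neither overlapped, and the log2 fold changes were 1.20 ± 0.18 and 1.30 ± 0.15 (edgeR FDR 0.000201 and 4.31e-05). In ganglionic progenitors V2 mice had 936, 847 and 987 and V3.8 mice 1601, 1325 and 1529, with a log2 fold change of 0.68 ± 0.11 (FDR 1.84e-05). The log2 fold changes in Astrocytes_1 and Astrocytes_2 were 0.77 ± 0.11 and 0.93 ± 0.19. The *Egr1* call held in 12 of 13 alternative settings in Astrocytes_1 and in 9 of 13 in Astrocytes_2.

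*Nr4a1* was called in Astrocytes_2 (log2 fold change 0.78 ± 0.15), pericytes (1.11 ± 0.22) and ganglionic progenitors. In the progenitors WT 1 had 51.5 CPM, from 23 UMIs, far below *Fmr1*-KO 1 (229) and *Fmr1*-KO 2 (260), and the V3.8 mice had 362, 274 and 456. The log2 fold change of 1.42 ± 0.22 (edgeR FDR 1.59e-05) was 0.89 without WT 1 (FDR 0.0125, not called) and 2.61 without *Fmr1*-KO 3. The call in pericytes held in 8 of 13 alternative settings. It was lost with thinned cells (0.67), without WT 1 (0.77) and without each of the 3 *Fmr1*-KO mice in turn (1.14 to 1.54). In Astrocytes_2 it held in 10 of 13. *Ier2* was called in Astrocytes_1 (0.54 ± 0.11), endothelial cells (0.79 ± 0.17) and pericytes (0.99 ± 0.16). In endothelial cells it stood at 1156, 698 and 950 CPM in V2 mice and at 1514, 1857 and 1431 in V3.8 mice, without overlap. The *Ier2* call held in 8 of 13 alternative settings in Astrocytes_1 and in 10 of 13 in endothelial cells and pericytes.

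*Dusp1* was called in Astrocytes_1, endothelial cells and pericytes. In Astrocytes_1 the V2 mice had 232, 251 and 248 CPM and the V3.8 mice 543, 705 and 469. In endothelial cells they had 591, 445 and 580 against 1333, 1341 and 987. No mouse of one version reached the other in either subtype, and the log2 fold changes were 1.20 ± 0.15 (edgeR FDR 0.000945) and 1.17 ± 0.16 (FDR 5.65e-05), both called in all 13 alternative settings. In pericytes the log2 fold change was 1.32 ± 0.23 (FDR 0.0020), and the call held in 9 of 13. In ganglionic progenitors (-0.17 ± 0.27) and microglia (-0.23 ± 0.25) *Dusp1* was not called. *Dusp1* overlaps *Ergic1* on the opposite strand of chromosome 17. *Btg2* was called only in Astrocytes_1, with 673, 557 and 706 CPM in V2 mice, 977, 1020 and 840 in V3.8 mice and a log2 fold change of 0.52 ± 0.11 (edgeR FDR 0.0076). In endothelial cells its log2 fold change was -0.26 ± 0.19. The *Btg2* call in Astrocytes_1 held in 9 of 13 alternative settings.

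**Figure D4:**
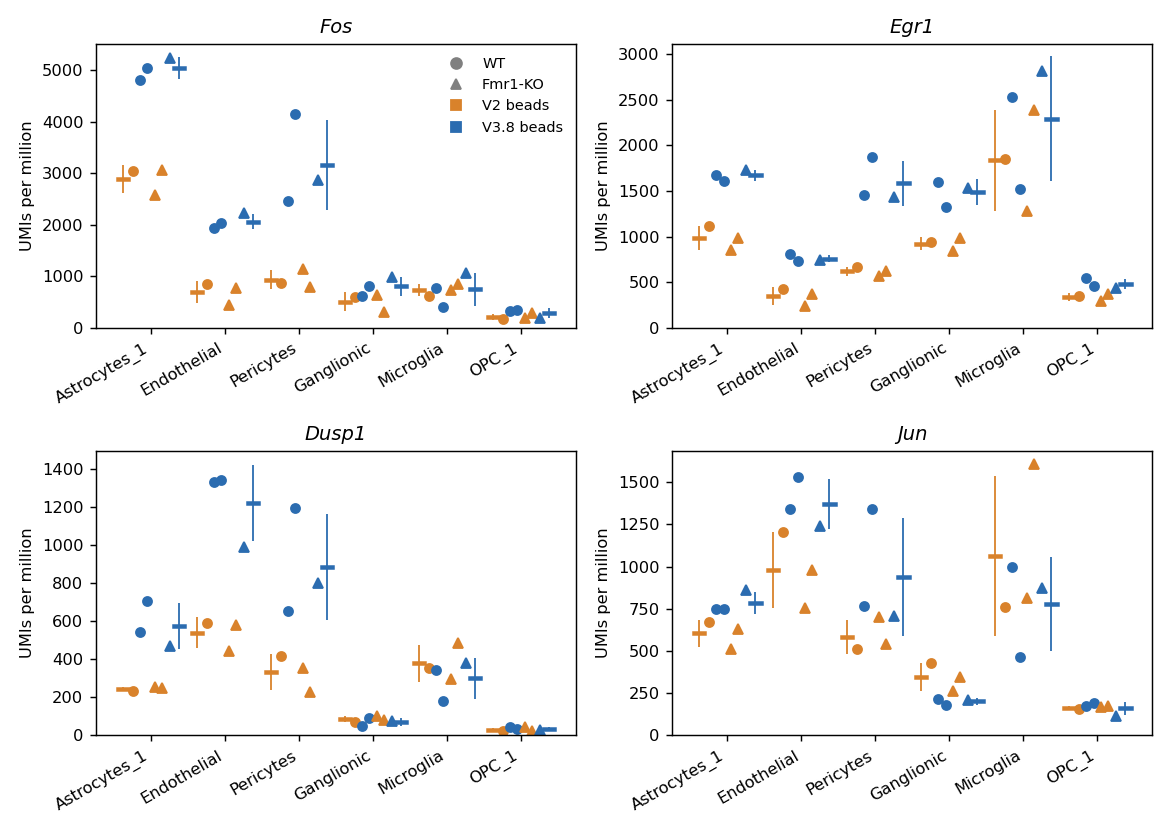
CPM of Fos, Egr1, Dusp1 and Jun in each mouse in 6 subtypes (linear axes from 0), with mean and SD of the 3 mice of each bead version at the sides. Fos, Egr1 and Dusp1 separate by bead version in Astrocytes_1, Endothelial and Pericytes, Jun is lower with V3.8 beads in Ganglionic, and in Microglia the versions overlap for all 4 genes.

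The difference between bead versions was itself unequal between subtypes for some members. In a fit over the sums of all 10 subtypes with the mouse as a block, the interaction of bead version and subtype passed an FDR of 0.01 for 4 of the 10 members, against 11.4% of 8075 genes. A gene entered with all its sums if it passed the detection filter in any of the subtypes. Sums below the filter were thus used as well, such as *Dusp1* in oligodendrocytes with 32 UMIs. These were *Dusp1* (edgeR FDR 0.0014), *Fos* (0.0067), *Nr4a1* (0.0071) and *Junb* (0.0080). *Egr1* (0.018) and *Jun* (0.024) did not pass, and the FDR of *Ier2*, *Btg2*, *Atf3* and *Fosb* was between 0.32 and 0.89. The count rested on single mice, being 0 without WT 1, *Fmr1*-KO 2 or *Fmr1*-KO 3, 1 without *Fmr1*-KO 1, 3 without WT 3 and 7 without WT 2.

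The genotypes were compared in the same fits. Of the 71 combinations none was called by edgeR or by DESeq2, against 0.0155% of the 38812 tests over all genes, and 7 had an unadjusted p under 0.05 in the edgeR test. Over all genes the share with such a p was lowest in pericytes (102 of 3099) and highest in endothelial cells (449 of 4080). The difference of *Fmr1*-KO minus WT was above 0 in 25 of 71 combinations, with a median log2 fold change of -0.12 and a range from -1.25 to 1.12. No interaction of genotype and subtype passed (0 of 10 members, against 0.0124% of 8075 genes). An unadjusted p under 0.05 was found for 1 member, *Nr4a1* at 0.0212 (edgeR), and for 248 of the 8075 genes.

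The combination nearest to the threshold was *Nr4a1* in ganglionic progenitors, with a log2 fold change of 1.12 ± 0.23 and an edgeR FDR of 0.025. Levels were 51.5, 362 and 274 CPM in WT 1, WT 2 and WT 3 and 229, 260 and 456 in *Fmr1*-KO 1, *Fmr1*-KO 2 and *Fmr1*-KO 3, so that the genotypes overlapped. The log2 ratio of *Fmr1*-KO to WT was 2.23 within V2 mice and 0.52 within V3.8 mice, on the scale of log2(CPM + 0.5). Without WT 1 the log2 fold change was 0.53 (FDR 0.54), and it was called without *Fmr1*-KO 1 (1.11) and without *Fmr1*-KO 3 (2.25).

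*Fosb* in pericytes stood at 360, 201 and 483 CPM in WT and 201, 126 and 140 in *Fmr1*-KO mice. WT 2 was only just above *Fmr1*-KO 1, and the log2 fold change of -1.25 ± 0.29 was not called (edgeR FDR 0.54). It was called without WT 2 (-1.49, FDR 0.0017). *Fos* in OPC_1 had a log2 fold change of -0.24 and, of the alternatives run, was called only without WT 1 (-0.88, FDR 0.0082), while without *Fmr1*-KO 3 it was 0.51 and not called. In microglia *Fos* was 625, 769 and 404 CPM in WT and 734, 846 and 1060 in *Fmr1*-KO mice. WT 2 lay within the *Fmr1*-KO range, and the log2 fold change of 0.63 ± 0.22 was not called (edgeR FDR 0.9998).

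Libraries of one mouse hold cells of the same animal and are not replicates of a condition. In the populations with high levels they differed less than the mice of both bead versions together. In Astrocytes_1 the 10 genes together ranged from 6570 to 9287 CPM over the 8 libraries with V2 beads and from 12065 to 12779 over the 9 libraries with V3.8 beads. The highest V2 library, the first of *Fmr1*-KO 2, lay below the lowest V3.8 library. The ratio of the highest to the lowest library of a mouse was 1.04 in the median and at most 1.31 (*Fmr1*-KO 2). Between the highest and the lowest of all mice, which span both bead versions, the ratio was 1.87. Within V3.8 beads the libraries of WT 2 (12065 to 12562), WT 3 (12178 to 12724) and *Fmr1*-KO 3 (12489 to 12779) overlapped. Even so, the chi-square per degree of freedom of the members between libraries of a mouse had a median of 5.55 in Astrocytes_1, against 1.40 over all genes tested. In OPC_1 the medians were 0.96 for the members and 1.01 for all genes, and in every other tested subtype the members had the higher median. The genes were not matched on level, so whether members differed more than other genes of equal level was not tested.

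In endothelial cells the libraries ranged from 3945 to 6905 CPM with V2 beads and from 8121 to 10316 with V3.8 beads, again without overlap. Within V2 beads, the 4 libraries of *Fmr1*-KO 2 spanned 4087 to 6642 and overlapped those of *Fmr1*-KO 1 (3945 to 4111) and WT 1 (5671 to 6905). In microglia they overlapped, from 7357 to 13316 and from 6532 to 13035. WT 3 was the lowest mouse in microglia (6686 CPM) and *Fmr1*-KO 2 the highest (12093), while in Astrocytes_1 WT 3 (12469) was far above *Fmr1*-KO 2 (7987). In excitatory neurons and in interneurons the libraries of a mouse differed by 1.75-fold in the median.

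**Figure D5:**
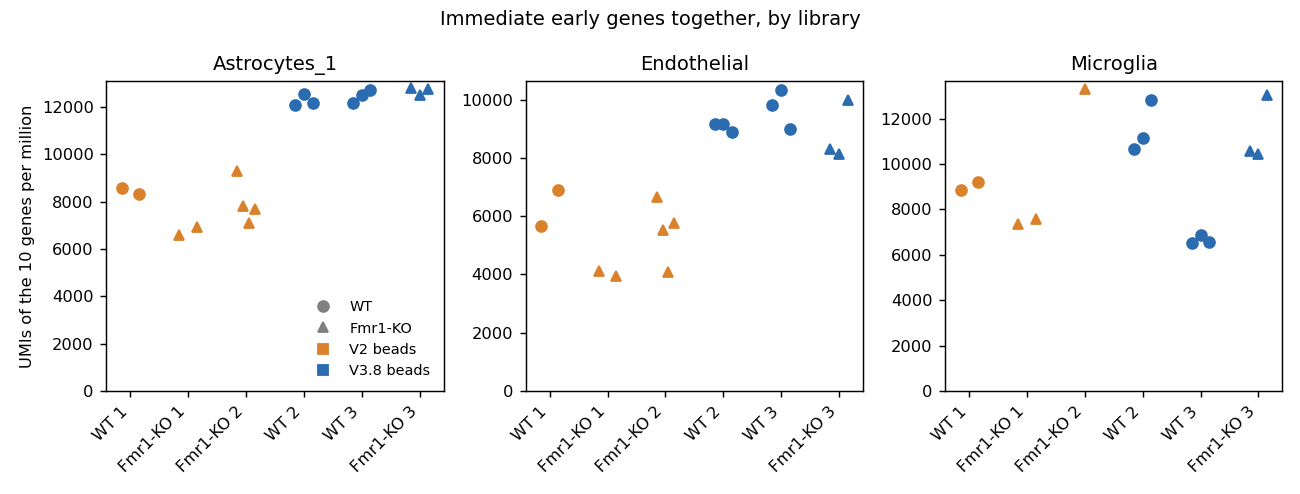
CPM of the 10 genes together in each library with at least 30 cells of the subtype, by mouse, V2 mice first (linear axes from 0). In Astrocytes_1 and Endothelial the bead versions do not overlap, while in Microglia WT 3 and Fmr1-KO 1 are low and the versions overlap.

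Most astrocytes, microglia and vascular cells carried at least 1 UMI of the members. With every cell thinned to 700 UMIs, the share of Astrocytes_1 cells with a UMI of any of the 10 genes was between 67.8% and 96.8% over the 6 mice, and that of *Fos* alone between 49.2% and 89.8%. Without thinning, *Fos* was found in 88.5% of these cells, whose median depth ranged from 2115 to 7113 UMIs over mice. Cells with fewer UMIs were left out, 22 in WT and 17 in *Fmr1*-KO mice. In microglia the share with any member was between 77.5% and 89.3%. Excitatory neurons had between 22.8% and 49.0% and oligodendrocytes, with 24 to 108 cells per mouse, between 16.7% and 34.7%. The share of oligodendrocytes with a *Fos* UMI was between 0% and 8.16% after thinning and 22.3% without it, at a median depth from 2251 to 6649 UMIs. Free RNA can also give UMIs in cells that do not express a gene, and its part was not tested. The 10% of cells with the most member UMIs held from 21.7% to 41.6% of them in Astrocytes_1 and from 51.4% to 65.1% in interneurons.

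Genes of related lists were also called between bead versions by edgeR. From a list of growth factor and serum response genes, 17 of 63 tested combinations were called higher with V3.8 beads and 0 lower. Among them were *Cyr61*, a matricellular protein (log2 fold change 1.14 in Astrocytes_1 and 1.40 in endothelial cells), *Klf2*, a flow-responsive factor (2.42 in pericytes), and *Plk2*, a stress-induced kinase (1.35 in endothelial cells). From neuronal activity genes 7 of 23 were called higher and 0 lower, with *Gadd45g* (1.12) and *Egr2* (0.64) in Astrocytes_1, *Gadd45b* in pericytes (1.42) and *Egr3* in microglia (1.49). In excitatory neurons and in ganglionic progenitors only 1 gene of this list was tested in each, and 0 were called.

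From feedback inhibitors 15 of 81 combinations were called higher and 2 lower. *Nfkbia*, the inhibitor of NF-κB, was higher in Astrocytes_1 (0.87), Astrocytes_2 (1.03) and pericytes (1.19), and *Dusp6*, a phosphatase of ERK, in Astrocytes_1 (0.64) and endothelial cells (0.94). The lower ones were *Sgk1*, a glucocorticoid-induced kinase, in microglia (-1.43) and *Spry4*, an inhibitor of receptor signalling, in OPC_1 (-0.70). From AP-1 partners 5 of 27 were called higher, including *Maff* in Astrocytes_1 (1.33), and 3 lower, all of them *Jund*, in ganglionic progenitors (-0.63), interneurons (-0.73) and OPC_1 (-0.61). From heat shock and chaperone genes 7 of 91 were called higher and 1 lower. Among them *Hspa8*, a constitutive chaperone, was higher in endothelial cells (1.06) and *Hspa5*, a chaperone of the endoplasmic reticulum, lower in excitatory neurons (-0.78). The shares called higher were 27.0%, 30.4%, 18.5%, 18.5% and 7.69% of the combinations in this order of lists, against the 4.32% of all tests given above. Between genotypes 0 of 285 combinations of these lists were called by edgeR, with 33 at an unadjusted p under 0.05. Over all genes the share with such a p lay between 102 of 3099 in pericytes and 449 of 4080 in endothelial cells.

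Genes whose levels were like those of the members were also listed. Over 60 sums (10 subtypes in 6 mice), after the mean of each subtype was subtracted, genes among the most correlated with the 10 members together, of 1428 genes tested in every subtype, were *Atf4* (Pearson's r = 0.67), *Sh3bgrl* (0.65), *Cst3* (0.64) and *Fau* (0.64). *Atf4* encodes a factor of the integrated stress response. These points share mice and bead versions. With the mean of each subtype and bead version subtracted, r was 0.35 for *Atf4*, 0.41 for *Sh3bgrl*, 0.47 for *Cst3* and 0.00 for *Fau*, which encodes a ribosomal protein. Over the means of the 10 subtypes genes among the closest were *Rpl22l1* (r = 0.87), *Gng5* (0.85), *Sdcbp* (0.84) and *Ski* (0.81).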

How the data were processed

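Cortices of 3 WT and 3 *Fmr1*-KO mice at postnatal day 5 had been sequenced by InDrop. The authors aligned reads to mm10 with TopHat2 (2.0.14) and counted 3′ ends with ESAT, and the deposited values are raw UMI counts per gene and cell, with no normalization. Use of strand is not given in the sources used here. The authors removed barcodes under 700 UMIs and assigned subtypes and doublets, and their annotation was used.

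UMIs were summed per mouse and subtype without doublets, and shown per 1000000 UMIs of the sum (CPM). Subtypes with at least 100 cells per genotype and 10 per mouse, and genes detected in 15% or more of cells, were tested with edgeR (4.0.16, R 4.3.3) by quasi-likelihood with TMM, genotype and bead version, and called at FDR under 0.01 and 1.15-fold. SE was derived from the fold change and F. Interactions were fitted over the sums of all tested subtypes with the mouse as a block, for genes past the detection filter in any of them. Sums below the filter in other subtypes were included. Log2 ratios within a bead version used a pseudocount of 0.5 CPM. Alternatives were DESeq2 (1.42.0), no TMM, filterByExpr, no filter, fewer covariates, FDR under 0.05, thinning to 700 UMIs (numpy 2.4.6), means over cells, the replicate number as a block, and each mouse left out. Scripts were tested on simulated data. Python 3.11.15, pandas 2.3.3, scipy 1.17.1 and matplotlib 3.10.9 were used. Each mouse gave from 7909181 to 20629134 UMIs, which sets the counting error of low genes.

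The 10 genes and the other lists were chosen with earlier results of these data known, so their counts are descriptions. From the other lists, genes past the threshold were named, at most 3 per list and subtype by smallest p, with examples given from these. The 5 genes most correlated with the 10 together, by deviations from subtype means and by subtype means, were also taken, of which 1 is not reported here. No per-sample columns were left unused. Replicate numbers were not treated as pairs, since mice numbered 2 differed in bead version and their deviations did not move together (r from -0.53 to -0.07 over subtypes).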

Additional observations from a re-analysis of the deposited data

Results flagged for a closer look

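The difference between bead versions differed between subtypes by the interaction test over 10 subtypes (edgeR) for 4 genes. For *Dusp1*, *Nr4a1* and *Junb*, though not *Fos*, the fit included sums below the detection filter. The FDR was 0.0014075 for *Dusp1*, 0.0066722 for *Fos*, 0.0070555 for *Nr4a1* and 0.0080041 for *Junb*. For *Dusp1*, the log2 fold change with V3.8 beads was 1.20 in Astrocytes_1 and -0.23 in microglia. For *Fos* it was 1.74 in pericytes and -0.06 in excitatory neurons. For *Nr4a1* it was 1.42 in ganglionic progenitors and 0.04 in OPC_1, and for *Junb* 1.10 in pericytes and -0.23 in microglia. None of the 4 passed an FDR of 0.01 without WT 1, *Fmr1*-KO 2 or *Fmr1*-KO 3. The share of all genes passing in these runs was 2.95%, 6.55% and 1.96%, against 11.4% with all mice.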

How the results depend on the processing

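No called value changed direction under the alternatives run. Of 144 summary values, 129 stayed near their main value and 15 moved. For levels, near meant within the SD over mice. Leaving out a single mouse cannot shift a mean of all mice by that much, so those level values are no test. For counts, near meant within a set ratio of the main count, so that calls could be lost without a move. Without single mice, 7 to 23 combinations were called between bead versions in place of 24, 0 to 1 between genotypes in place of 0, and 0 to 7 interactions of bead version and subtype in place of 4. Over all genes such interactions passed for 1.96% to 13.8% in the same runs, in place of 11.4%. The genotype count was 1 at FDR under 0.05 (*Nr4a1* in ganglionic progenitors) and 2 without a filter (also *Fosb* in pericytes). Of 312 single values of called combinations under alternatives, 63 lost the call. The bead-version count was 21 with DESeq2 and 36 without a filter (99 combinations tested). For the counts of called combinations, the share of all genes called is not given under these alternatives. In excitatory neurons the 10 genes together were 779 CPM as a mean over cells and 767 with thinned cells, against 567 in the sum.

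With the replicate number as a block in place of the bead version, 0 combinations were called between genotypes. The numbers mark no shared animal, and the correlation of deviations between same-numbered mice was 0.17 to 0.67 for number 1, -0.53 to -0.07 for number 2 and 0.30 to 0.76 for number 3 over subtypes. *Atf3* outside microglia and endothelial cells, and most members in neurons and oligodendrocytes, were below the detection filter and were not tested within those subtypes. Their sums did enter the interaction fit. With no UMI of *Atf3* counted in ganglionic progenitors, a level of up to 1.17 CPM there remains allowed by the limit of 3 counts.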
